A study of Mus musculus with 8 samples.

Results

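Substantia nigra RNA of mice that received α-ketoglutarate (AKG) together with an AAV (adeno-associated virus) vector for α-synuclein was compared with that of control mice, to ask which differences from control were present in mice given both treatments. The comparison used 4 of the 8 libraries of the series, 2 from mice labelled α-Syn_AKG and 2 from wild-type mice labelled WT. The other 4 libraries, 2 from mice given the AAV alone (α-Syn) and 2 from mice given AKG alone (AKG), entered the estimate of the spread. They are given beside some of the results. All 8 libraries came from the substantia nigra of male C57BL/6 mice. The title of the series places AKG in the diet. The sources used here do not give age, dose, time, the promoter of the vector or the species of its α-synuclein. The labels name no vector, empty or not, for the AKG and WT mice, and vector sequence was not analysed here. Whether the 2 libraries of a group are separate animals is not stated either, so p-values measure only the spread between these libraries, which may be technical.

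The substantia nigra holds dopamine neurons, whose loss defines Parkinson's disease, beside GABA neurons, glia and vessels. Dopamine neurons make dopamine from tyrosine in a pair of steps, with tyrosine hydroxylase (Th) and aromatic amino acid decarboxylase (Ddc), load it into vesicles with the vesicular monoamine transporter (Slc18a2) and take it back up with the dopamine transporter (Slc6a3). α-Synuclein is a presynaptic protein that aggregates in Parkinson's disease, and its delivery with AAV into the nigra is a common way to model the disease in rodents. AKG is an intermediate of the tricarboxylic acid (TCA) cycle and a co-substrate of a large family of dioxygenases that includes histone and DNA demethylases.

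Promoters of 3 of these 4 genes are shown, which act in 1 pathway and were lower together in the α-Syn_AKG libraries. Ddc, also searched and also lower, is not shown. Its 2 windows held neither the cAMP response element nor the E-box named below. The windows run from 250 bases before to 50 bases after the annotated start of the gene (RefSeq, GRCm38.p6), 5′ to 3′ on the strand of the gene, at chr7:142899946-142900245 (minus strand) for Th, chr19:59260628-59260927 (plus strand) for Slc18a2 and chr13:73536497-73536796 (plus strand) for Slc6a3. Capitals mark the cAMP response element TGACGTCA in Th and Slc18a2 and the E-box CACGTG in Slc6a3.
Th: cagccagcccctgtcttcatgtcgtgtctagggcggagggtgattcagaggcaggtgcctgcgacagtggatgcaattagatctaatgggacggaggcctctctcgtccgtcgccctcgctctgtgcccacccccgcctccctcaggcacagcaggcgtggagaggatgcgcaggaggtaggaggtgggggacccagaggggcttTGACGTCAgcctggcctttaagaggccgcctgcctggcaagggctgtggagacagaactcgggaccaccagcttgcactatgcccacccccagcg
Slc18a2: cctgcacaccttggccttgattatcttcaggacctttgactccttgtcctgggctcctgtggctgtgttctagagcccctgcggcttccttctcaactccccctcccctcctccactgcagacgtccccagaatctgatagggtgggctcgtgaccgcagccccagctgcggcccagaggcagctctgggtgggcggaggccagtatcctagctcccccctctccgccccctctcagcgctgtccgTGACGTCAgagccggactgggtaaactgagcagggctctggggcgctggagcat
Slc6a3: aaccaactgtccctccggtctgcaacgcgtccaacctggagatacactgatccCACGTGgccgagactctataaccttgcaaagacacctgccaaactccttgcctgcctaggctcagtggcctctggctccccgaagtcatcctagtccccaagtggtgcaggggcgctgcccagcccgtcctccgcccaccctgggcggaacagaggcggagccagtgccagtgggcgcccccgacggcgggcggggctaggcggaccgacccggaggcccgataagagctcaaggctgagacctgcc
Searched on both strands, TGACGTCA began 45 bases before the start of Th and 4 bases before that of Slc18a2, and was found in 588 of 32817 mouse promoter windows (1.79%). CACGTG began 197 bases before the start of Slc6a3 and was found in 7.15% of windows. The NR4A monomer site AAGGTCA (4.72% of windows) was in none of these windows, and 1 of the 2 windows of Ddc held its reverse complement TGACCTT, 73 bases before the start.

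Each library held 16544190.0 to 19125423 reads on genes, recovered from the deposited values. FPKM is a level corrected for gene length and library size, and 1 read on a 1 kb gene came to between 0.0515 and 0.0590 FPKM. Log2 differences, with their standard errors after ±, are of log2(FPKM + 1), a scale on which differences of low genes come out too small. WT library 1 stood apart from the others: across genes, its Spearman correlation with the other 7 averaged 0.926, and that of every other library 0.971 to 0.975. The 2 α-Syn_AKG libraries also differed from each other in tissue markers. The mean log2(FPKM + 1) of 16 choroid plexus genes was 1.12 and 3.83 in the α-Syn_AKG libraries and 4.52 and 1.82 in the WT libraries. That of 12 genes of ependymal cilia was 2.47 and 2.29 in the α-Syn_AKG and 3.84 and 2.44 in the WT libraries, and that of 5 hemoglobin and red cell genes was 4.30 and 5.05 in the α-Syn_AKG and 1.46 and 5.26 in the WT libraries. WT library 1 was thus the highest for both tissue lists and the lowest for hemoglobin. Ttr, the transthyretin of the choroid plexus, was at 53.4 and 4857 FPKM in the α-Syn_AKG libraries and 8778 and 435 FPKM in the WT libraries, and its part in the results below was not tested. The main results are therefore also given against WT library 2 alone.

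**Figure D1:**
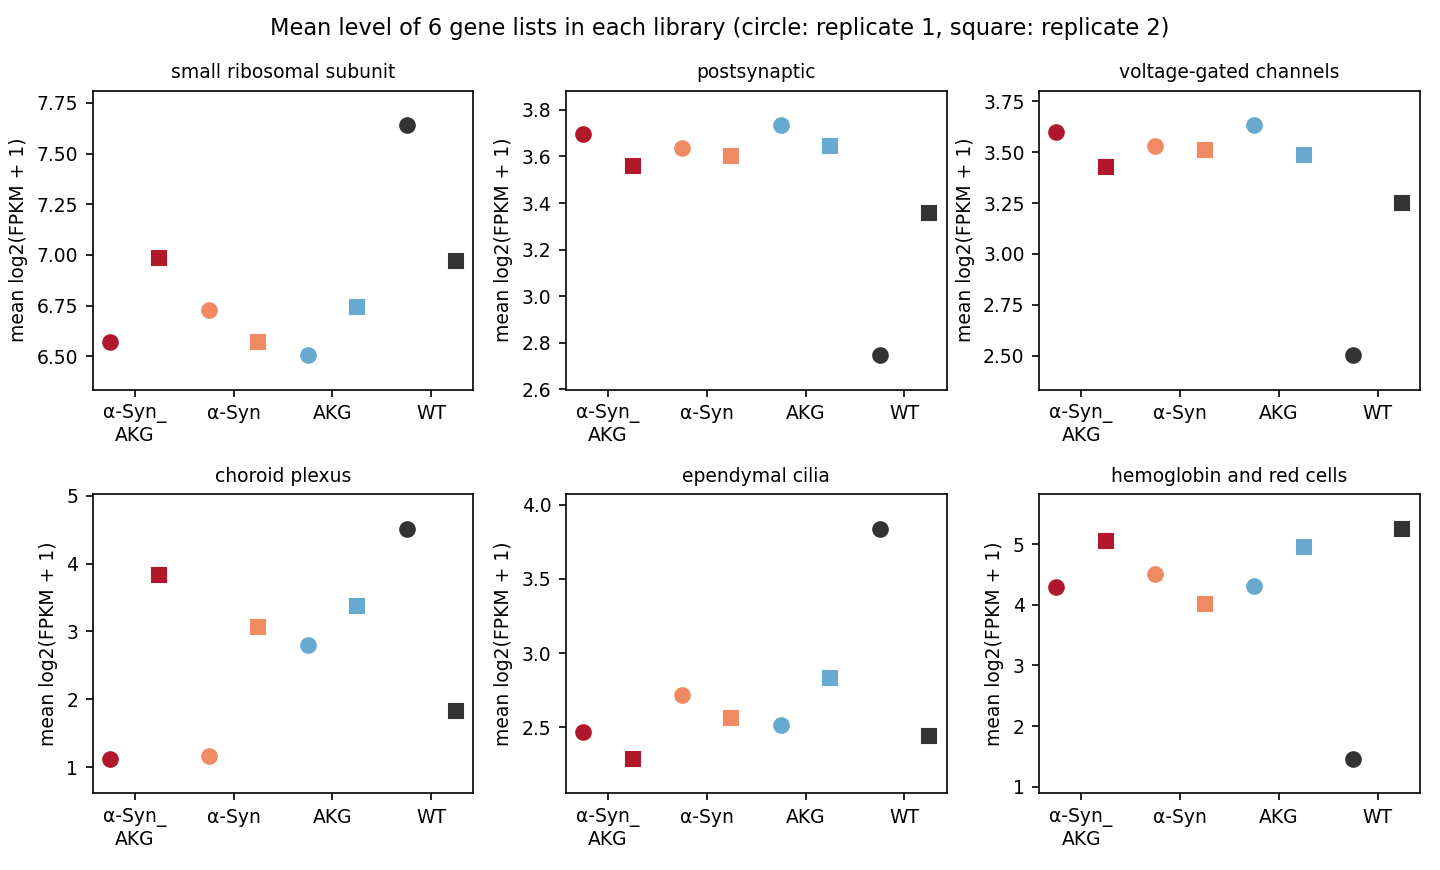
Mean log2(FPKM + 1) of the tested genes of 6 lists in each library, by group, with circles for replicate 1 and squares for replicate 2. WT library 1 is the highest library for the choroid plexus (4.52) and the ependymal cilia (3.84) and the lowest for hemoglobin (1.46), postsynaptic (2.75) and channel genes (2.503).

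Th, Ddc, Slc18a2 and Slc6a3, which make, store and take up dopamine, were lower in both α-Syn_AKG libraries than in both WT libraries. Th makes the rate-limiting enzyme of this pathway and is annotated on GRCm38 (ENSMUSG00000000214, chromosome 7, 142892752 to 142931128). This span begins upstream of the promoter window shown above, which was placed at the RefSeq start. Th was at 14.6 and 16.6 FPKM in the α-Syn_AKG libraries, against 38.8 and 38.8 FPKM in the WT libraries. The α-Syn_AKG mean was 40.1% of the WT mean, and the gap between the nearest libraries was wider than the spread within either group. The log2 difference was -1.27 ± 0.13 (adjusted p = 0.202 from limma, a moderated linear model fitted across all genes), and it was -1.27 against WT library 2 alone. In bulk tissue, fewer dopamine neurons and less of this RNA per neuron cannot be told apart.

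Slc6a3 encodes the dopamine transporter (ENSMUSG00000021609, chromosome 13, 73536747 to 73578672). Its level was 4.99 and 11.9 FPKM in the α-Syn_AKG libraries and 24.1 and 28.5 FPKM in the WT libraries. Both α-Syn_AKG libraries were below both WT libraries, although the 2 α-Syn_AKG libraries differed from each other more than the WT libraries did. The log2 difference was -1.63 ± 0.42 (limma adjusted p = 0.349) and -1.75 against WT library 2 alone. Slc18a2, the vesicular monoamine transporter, was at 7.403 and 6.35 FPKM in the α-Syn_AKG libraries and 10.8 and 11.3 FPKM in the WT libraries, a log2 difference of -0.62 ± 0.14. Ddc, the decarboxylase, was at 11.5 and 11.5 FPKM in the α-Syn_AKG libraries and 23.1 and 16.7 FPKM in the WT libraries, a log2 difference of -0.72 ± 0.17 that was -0.50 against WT library 2 alone. Neither gene overlapped between the groups, and neither passed the threshold (limma adjusted p = 0.349 for both).

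The rest of the dopamine pathway was nearer to WT. Qdpr and Pts, which serve the tetrahydrobiopterin cofactor of Th, differed from WT by -0.056 and -0.28, and their libraries overlapped between the groups. Of 7 listed genes of dopamine synthesis, storage and uptake 6 were tested, and 4 of these 6 were lower in both α-Syn_AKG libraries, where 20.5% of all tested genes were lower without overlap and 21.3% were higher. Gch1, which starts cofactor synthesis, averaged under 1 FPKM and was not tested. The median log2 difference of the 6 genes was -0.67, and -0.57 against WT library 2 alone, beside -0.0055 over all tested genes.

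Other genes of dopamine neuron identity were lower as well. Of 14 tested transcription factors, receptors and identity genes 8 were lower in both α-Syn_AKG libraries (20.5% of all genes) and 0 were higher (21.3%). Their median was -0.36, and -0.37 against WT library 2 alone. Chrna6, a nicotinic receptor subunit enriched in dopamine neurons, was at 1.47 and 2.21 FPKM in the α-Syn_AKG libraries and 3.598 and 4.85 FPKM in the WT libraries, and the groups did not overlap. Slc10a4, a vesicular carrier of monoamine neurons, was at 1.86 and 4.86 FPKM in the α-Syn_AKG libraries and 5.51 and 6.66 FPKM in the WT libraries. In α-Syn_AKG library 2 it lay close below WT, and in library 1 far below. Sncg, γ-synuclein, was at 31.2 and 36.7 FPKM in the α-Syn_AKG libraries and 77.04 and 46.7 FPKM in the WT libraries, a log2 difference of -0.81 ± 0.26 that was -0.45 against WT library 2 alone. Aldh1a1, which marks ventral nigral dopamine neurons, was at 26.3 and 29.6 FPKM in the α-Syn_AKG libraries and 37.9 and 35.05 FPKM in the WT libraries. Nr4a2, a transcription factor that dopamine neurons need, was at 6.19 and 3.71 FPKM in the α-Syn_AKG libraries and 5.83 and 6.43 FPKM in the WT libraries, which overlapped. Pitx3, Lmx1b, Foxa2, En1 and Kcnj6 averaged under 1 FPKM and were not tested.

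**Figure D2:**
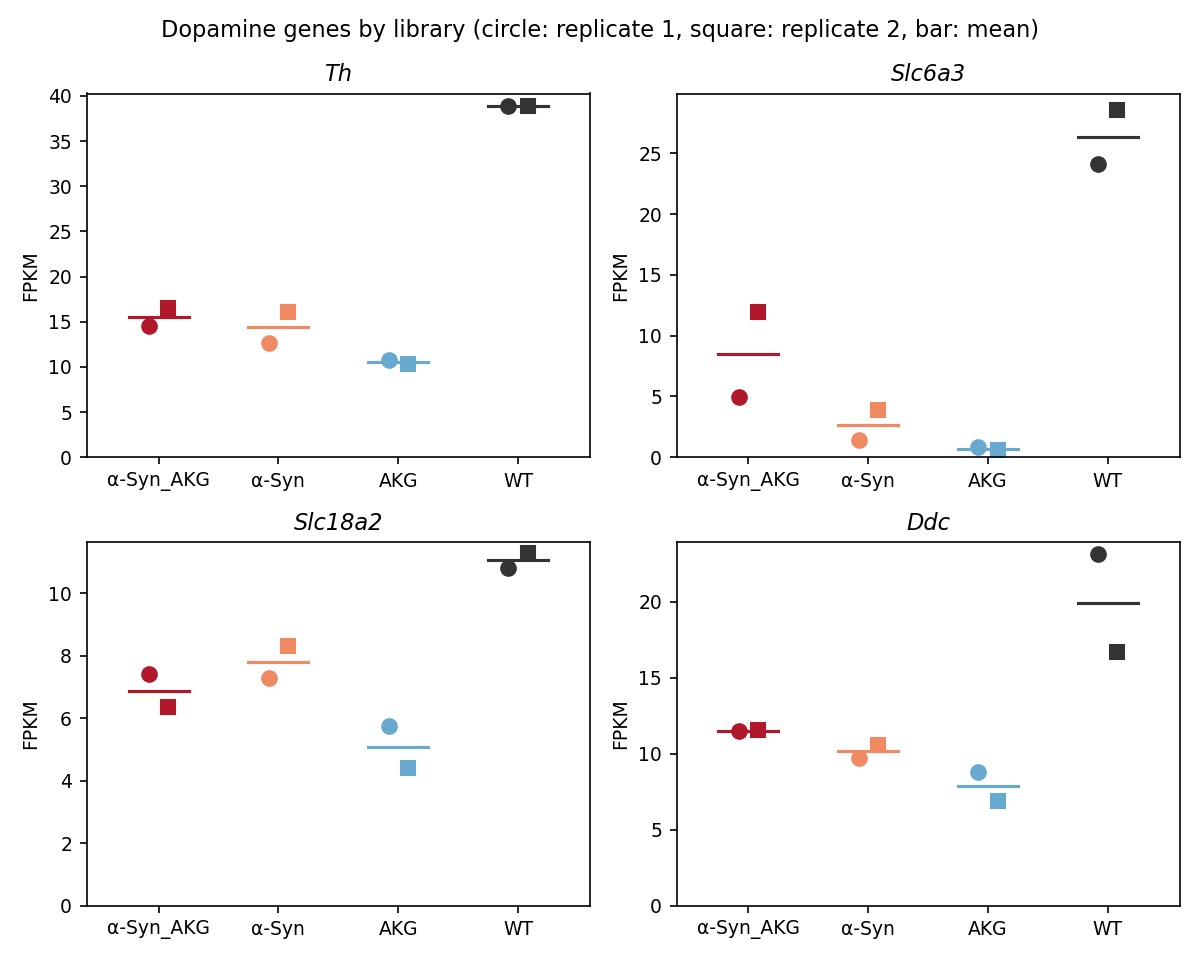
FPKM of Th, Slc6a3, Slc18a2 and Ddc in each library, by group, with circles for replicate 1, squares for replicate 2 and a bar at the mean of the group. In each panel both α-Syn_AKG libraries lie below both WT libraries, and for Slc6a3 (4.99 and 11.9 FPKM) they lie above the α-Syn (1.43 and 3.87) and AKG (0.801 and 0.615) libraries.

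Set beside the groups given a single treatment, Th and Slc6a3 were below WT in all 3. These differences share the WT libraries, so they are listed side by side. For Th the log2 difference from WT was -1.27 in the α-Syn_AKG group, -1.38 in the α-Syn group and -1.79 in the AKG group. For Slc6a3 it was -1.63 in the α-Syn_AKG group, -2.99 in the α-Syn group and -3.997 in the AKG group. Between the α-Syn_AKG and α-Syn libraries, Slc6a3 did not overlap, and the log2 difference was 1.36 ± 0.42 (limma unadjusted p = 0.0141, adjusted p = 1.0), higher in 2 of 2 libraries. In the same comparison Th differed by 0.12 ± 0.13, Ddc by 0.17 ± 0.17 and Slc18a2 by -0.16 ± 0.14. Slc10a4 differed by 0.61 ± 0.31, with 1.41 and 1.96 FPKM in the α-Syn libraries, so α-Syn_AKG library 1 lay between them and library 2 above both.

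Across all 13716 genes that averaged 1 FPKM or more, limma called 0 between α-Syn_AKG and WT below the adjusted p threshold of 0.05 (0%), and 0 were called by voom on recovered reads. Without adjustment, p was under 0.05 for 1195 genes higher in α-Syn_AKG (8.71%) and 712 lower (5.19%). Against WT library 2 alone the same fit called 0, with 463 higher (3.38%) and 309 lower (2.25%) unadjusted. Without WT library 2, by contrast, it called 2916. The count therefore turned on which WT library was kept. The smallest adjusted p, 0.174, belonged to the microRNA gene Mir149, which was named after its values were seen and differed by 2.74 ± 0.25. Among genes whose libraries did not overlap, 2928 (21.3%) were higher and 2807 (20.5%) lower in α-Syn_AKG. A gap of at least 0.5 on the log2 scale between the nearest libraries was left by 64 genes higher (0.467%) and 50 lower (0.365%).

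The protein-coding genes named next had the widest gaps or the smallest p in this same comparison, so their separation is a description of how they were chosen. Among those higher in α-Syn_AKG, Wipf3, which binds the actin regulator WASP, had the widest gap, with 5.85 and 3.45 FPKM in the α-Syn_AKG libraries and 1.47 and 1.499 FPKM in the WT libraries. Its difference was 1.15 ± 0.29, and 1.14 against WT library 2 alone. Wnk2, a kinase that regulates ion transport, was at 16.8 and 12.6 FPKM in the α-Syn_AKG libraries and 5.52 and 7.54 FPKM in the WT libraries, a difference of 1.06 ± 0.18. Both WT libraries lay below both α-Syn_AKG libraries, and against WT library 2 alone the difference of Wnk2 was 0.86. Itpr1, a calcium release channel of the endoplasmic reticulum, was at 12.1 and 11.4 FPKM in the α-Syn_AKG libraries and 5.46 and 7.42 FPKM in the WT libraries. Ddn, the dendrite protein dendrin, was at 34.95 and 29.5 FPKM in the α-Syn_AKG libraries and 13.7 and 17.7 FPKM in the WT libraries. Ptk2b, a calcium-activated tyrosine kinase, was at 15.9 and 14.2 FPKM in the α-Syn_AKG libraries and 4.46 and 8.85 FPKM in the WT libraries, a difference of 1.13 that was 0.70 against WT library 2 alone. These genes too were higher in both α-Syn_AKG libraries than in either WT library.

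The following genes were also higher in both α-Syn_AKG libraries, by differences that were smaller against WT library 2 alone. Adcy1, a neuronal adenylyl cyclase, was at 28.6 and 27.7 FPKM in the α-Syn_AKG libraries and 3.33 and 16.5 FPKM in the WT libraries, a difference of 1.74 that was 0.74 against WT library 2 alone. Prkcd, a protein kinase C abundant in thalamus, was at 72.3 and 100.4 FPKM in the α-Syn_AKG libraries and 14.96 and 45.02 FPKM in the WT libraries, a difference of 1.67 that was 0.91 against WT library 2 alone. WT library 1 was far below WT library 2 for both. Slc17a7, the vesicular glutamate transporter of cortex, was at 34.8 and 37.01 FPKM in the α-Syn_AKG libraries and 14.9 and 22.1 FPKM in the WT libraries. Rasgrp1, Clmn and Shank1 differed by 1.16, 1.18 and 1.29, and by 0.72, 0.69 and 0.74 against WT library 2 alone. Among the genes with the smallest p, Heg1, which acts in vessel development, Zfp628, Fryl, Peak1, Adgrf5 and Trhr2 differed by 0.50 to 0.91.

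Among genes lower in α-Syn_AKG, Th and Slc6a3 had the widest gaps. Fabp7, a fatty acid binding protein of radial glia and astrocytes (ENSMUSG00000019874, chromosome 10, 57784881 to 57788450), was at 14.7 and 20.2 FPKM in the α-Syn_AKG libraries and 31.2 and 38.6 FPKM in the WT libraries. The α-Syn_AKG mean was 49.9% of the WT mean, and the difference of -0.97 ± 0.24 was -1.12 against WT library 2 alone. Fabp7 was at 32.5 and 20.7 FPKM in the α-Syn libraries and 25.5 and 28.2 FPKM in the AKG libraries, so the α-Syn_AKG libraries were the lowest 2 of the 8. Rpa3, a subunit of the single-stranded DNA binding complex RPA, was at 5.12 and 5.17 FPKM in the α-Syn_AKG libraries and 7.34 and 8.43 FPKM in the WT libraries. Xbp1, a transcription factor of the unfolded protein response, was at 35.3 and 33.8 FPKM in the α-Syn_AKG libraries and 50.9 and 45.2 FPKM in the WT libraries, a difference of -0.46 ± 0.11 that was -0.38 against WT library 2 alone. Both genes had close replicates in both groups.

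Pf4, a platelet chemokine also made by border macrophages, was at 0.4997 and 0.853 FPKM in the α-Syn_AKG libraries and 2.66 and 2.04 FPKM in the WT libraries. S100a9, a calcium binding protein of neutrophils, was at 2.76 and 2.89 FPKM in the α-Syn_AKG libraries and 18.3 and 5.42 FPKM in the WT libraries. Myoc, myocilin, was at 4.19 and 6.63 FPKM in the α-Syn_AKG libraries and 20.02 and 10.1 FPKM in the WT libraries. For S100a9 and Myoc, WT library 1 was the higher WT library by a wide margin, and against WT library 2 alone the differences were -0.75 and -0.81, beside -1.54 and -1.28 against both. Tceal1 differed by -0.48 ± 0.10 with close replicates, and Dydc2 and Efcab10 by -0.99 and -1.01. Rps13, a protein of the small ribosomal subunit, mt-Co3, a mitochondrially encoded subunit of cytochrome oxidase, and Rpl10-ps3, which the deposited table lists as protein-coding, differed by -1.22, -0.92 and -1.14, and reads of these may be shared with near copies elsewhere in the genome.

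**Figure D3:**
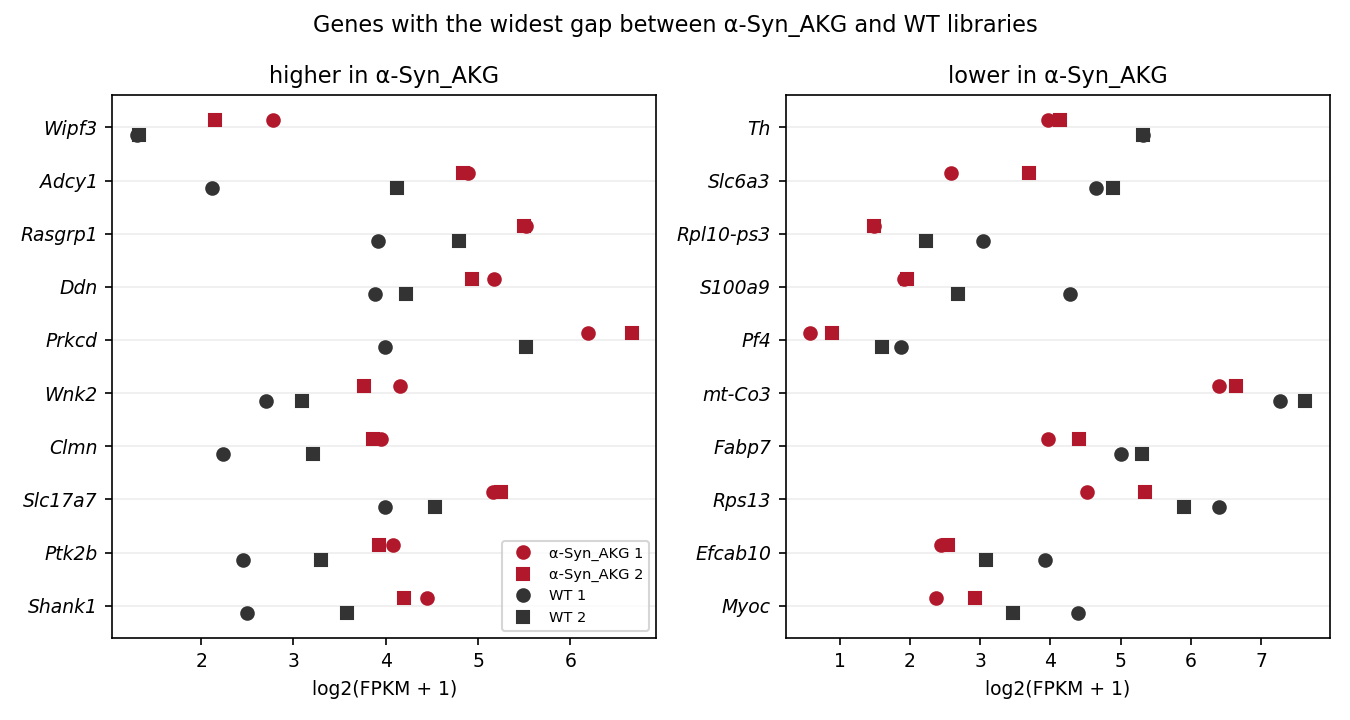
Log2(FPKM + 1) of the 10 genes per direction with the widest gap between the α-Syn_AKG and WT libraries, with 1 row per gene, circles for replicate 1 and squares for replicate 2. Wipf3 has the widest gap above WT (0.83) and Th the widest below (-1.18), and for Adcy1 and S100a9 the 2 WT libraries lie far apart.

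Genes of synapses and of neuronal excitability were higher in α-Syn_AKG than in WT. All 34 tested postsynaptic genes lay above WT in the mean, and 24 of the 34 did so without overlap (21.3% of all genes). Their median difference was 0.50, and 0.26 against WT library 2 alone, where both α-Syn_AKG libraries were above for 25 (29.3% of all genes) and both below for 0 (32.4% of all genes). Shank1, a scaffold of excitatory synapses, was at 20.9 and 17.4 FPKM in the α-Syn_AKG libraries and 4.63 and 10.97 FPKM in the WT libraries. Grin2b, an NMDA receptor subunit, was at 5.91 and 4.41 FPKM in the α-Syn_AKG libraries and 0.8898 and 2.76 FPKM in the WT libraries. For both genes WT library 1 was lower than WT library 2, and both WT libraries were below both α-Syn_AKG libraries. The scaffold Shank2 and Kalrn, a GTPase activator of dendritic spines, differed by 0.84 ± 0.19 and 0.77 ± 0.18, and by 0.55 and 0.52 against WT library 2 alone.

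All 35 voltage-gated potassium, sodium and calcium channel genes lay above WT in the mean and 26 did so without overlap (21.3% of all genes). Their median was 0.62, and 0.26 against WT library 2 alone. Cacna1a, the pore of the P/Q-type calcium channel, was at 8.59 and 7.46 FPKM in the α-Syn_AKG libraries and 2.79 and 5.58 FPKM in the WT libraries. Kcnq3 and Cacna1c differed by 0.95 and 0.79, and by 0.49 and 0.42 against WT library 2 alone. In each of these 3 genes WT library 1 was the lowest of the 8. Of 35 presynaptic genes 21 were higher without overlap (21.3% of all genes) and 2 lower (20.5%). Their median was 0.53, and 0.14 against WT library 2 alone. Bsn, a scaffold of the release site, was at 10.4 and 8.12 FPKM in the α-Syn_AKG libraries and 2.23 and 6.04 FPKM in the WT libraries, and Syn1, Syt7 and Nrxn2 differed by 0.91, 1.03 and 0.63.

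Gene length moved with these lists. As a description across genes, the Spearman correlation between gene length and the distance of a library from the average library was 0.47 and -0.17 in the α-Syn_AKG libraries and -0.52 and -0.28 in the WT libraries. With a smooth length trend removed from each library the medians were 0.24 for postsynaptic, 0.40 for channel and 0.31 for presynaptic genes. Without that removal, the same medians between the α-Syn_AKG and α-Syn libraries were 0.015, 0.0045 and 0.0053. Against both WT libraries they were 0.54, 0.65 and 0.46 in the α-Syn group, and 0.60, 0.69 and 0.53 in the AKG group.

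Markers of excitatory neurons in neighbouring regions were also higher. Of 14 genes of thalamic and midbrain excitatory neurons 10 were higher without overlap (21.3% of all genes) and 2 lower (20.5%). Their median was 0.83, and 0.37 against WT library 2 alone. Against both WT libraries it was 0.67 in the α-Syn group and 0.93 in the AKG group. Rora, a nuclear receptor of thalamic neurons, was at 14.2 and 14.1 FPKM in the α-Syn_AKG libraries and 3.52 and 9.76 FPKM in the WT libraries, and Plekhg1 and Synpo2 differed by 1.33 and 1.08. Of 9 forebrain excitatory genes 6 were higher (21.3% of all genes) and 1 lower (20.5%), with a median of 0.49 and of 0.38 against WT library 2 alone. The median against both WT libraries was 0.40 in the α-Syn group and 0.62 in the AKG group. Camk2a, a kinase of excitatory synapses, was at 100.5 and 80.4 FPKM in the α-Syn_AKG libraries and 40.02 and 62.5 FPKM in the WT libraries. Of 14 striatal projection neuron genes 6 were higher (21.3% of all genes) and 0 lower (20.5%), with a median of 0.26. Of 7 nigral GABA neuron genes 2 were higher (21.3% of all genes), with a median of 0.27 that was -0.041 against WT library 2 alone. The part of the dissected region in the synaptic and dopamine results was not tested.

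**Figure D4:**
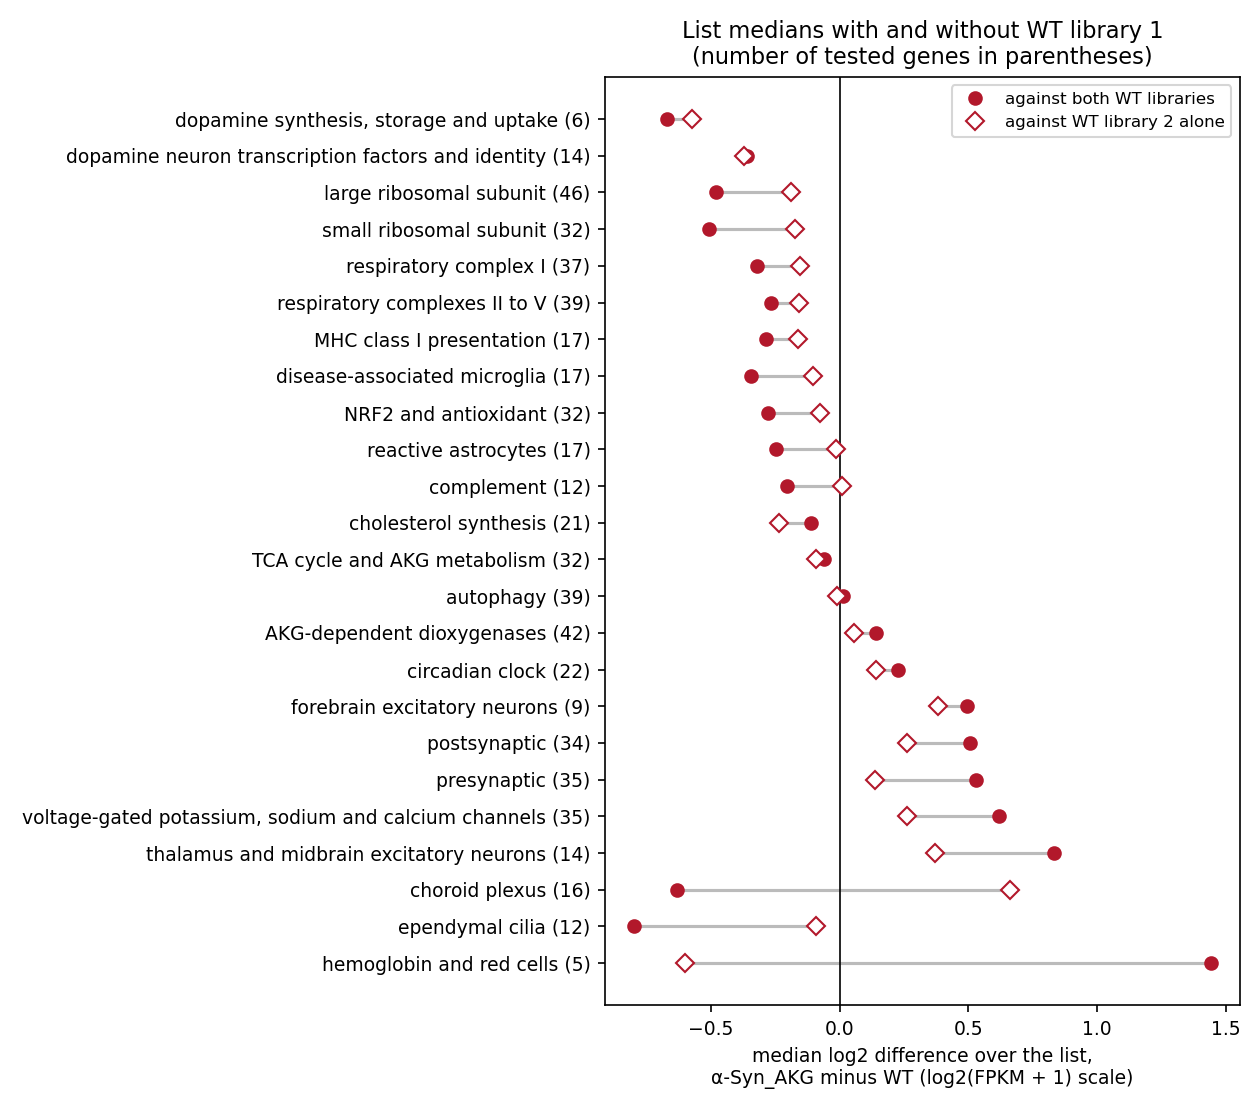
Median log2 difference of α-Syn_AKG from WT for 24 gene lists, with filled circles against both WT libraries, open diamonds against WT library 2 alone and the number of tested genes in parentheses. Dopamine genes keep medians of -0.57 and -0.37 against WT library 2 alone, ribosomal and synaptic medians are nearer to 0, and those of choroid plexus, hemoglobin, complement and autophagy change sign.

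In the mean of the 2 libraries, genes for protein synthesis and respiration were lower in α-Syn_AKG than in WT. The list means of α-Syn_AKG library 2 were, however, close to those of WT library 2. On the log2(FPKM + 1) scale they were 6.737 and 6.754 for the large and 6.985 and 6.968 for the small ribosomal subunit. All 46 proteins of the large and all 32 of the small ribosomal subunit lay below WT in the mean, 27 and 14 of them without overlap (20.5% of all genes), and 0 were higher. The medians were -0.48 and -0.51, and -0.19 and -0.17 against WT library 2 alone. Both α-Syn_AKG libraries lay below WT library 2 for 27 and 15 genes (32.4% of all genes) and above it for 1 and 1 (29.3%). Rpl34 was at 59.2 and 73.6 FPKM in the α-Syn_AKG libraries and 129 and 84.4 FPKM in the WT libraries, with WT library 1 the highest of the 8. Rps27a, a ribosomal protein made as a fusion with ubiquitin, was at 44.8 and 140.3 FPKM in the α-Syn_AKG libraries and 167 and 173 FPKM in the WT libraries. In α-Syn_AKG library 2 it was near WT, and in library 1 it was near the α-Syn libraries, which were at 47.9 and 40.03 FPKM. Reads of many ribosomal protein genes may be shared with pseudogenes.

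Of 37 respiratory complex I genes 13 were lower without overlap (20.5% of all genes) and 1 higher (21.3%). Their median was -0.32, and -0.16 against WT library 2 alone, below which 14 of the 37 lay (32.4% of all genes). The list mean was 5.70 and 6.08 in the α-Syn_AKG libraries and 6.31 and 6.05 in the WT libraries. Ndufb5 was at 21.3 and 24.3 FPKM in the α-Syn_AKG libraries and 30.4 and 27.3 FPKM in the WT libraries, and Ndufc2 and Ndufs8 differed by -0.49 and -0.37. Of 39 genes of complexes II to V 12 were lower (20.5% of all genes) and 0 higher (21.3%). Their median was -0.27, and -0.16 against WT library 2 alone, below which 14 of the 39 lay (32.4% of all genes). The list mean was 6.56 and 6.97 in the α-Syn_AKG libraries and 7.16 and 6.93 in the WT libraries. With the length trend removed the medians were -0.12 and -0.10 for the respiratory lists, and -0.35 and -0.36 for the ribosomal lists. Without that removal, the α-Syn group had medians against both WT libraries of -0.44 and -0.43 (respiratory) and -0.60 and -0.62 (ribosomal). Those of the AKG group were -0.39 and -0.39 (respiratory) and -0.61 and -0.63 (ribosomal).

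Genes of MHC class I antigen presentation were lower in α-Syn_AKG than in WT. Of 17 genes of MHC class I presentation 12 were lower without overlap (20.5% of all genes) and 0 higher (21.3%). The median was -0.29, and -0.16 against WT library 2 alone, below which 12 genes lay (32.4% of all genes). H2-K1, a class I heavy chain, was at 23.2 and 27.7 FPKM in the α-Syn_AKG libraries and 41.5 and 31.3 FPKM in the WT libraries. H2-D1, another heavy chain, was at 34.6 and 39.7 FPKM in the α-Syn_AKG libraries and 52.7 and 47.5 FPKM in the WT libraries, and the proteasome activator Psme1 differed by -0.47 ± 0.19. Each of these was lower in both α-Syn_AKG libraries. The list median against both WT libraries was -0.30 in the α-Syn group and -0.28 in the AKG group.

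Of 17 disease-associated microglia genes 4 were lower without overlap, a share near the 20.5% of all genes, and 0 were higher, with a median of -0.34 and of -0.10 against WT library 2 alone. Lyz2, lysozyme, was at 9.39 and 9.82 FPKM in the α-Syn_AKG libraries and 26.3 and 12.6 FPKM in the WT libraries. Cd68, a lysosomal protein of phagocytes, was at 4.91 and 6.67 FPKM in the α-Syn_AKG libraries and 6.42 and 6.23 FPKM in the WT libraries, and Aif1, a general microglial marker, was at 2.49 and 3.103 FPKM in the α-Syn_AKG libraries and 4.19 and 3.02 FPKM in the WT libraries. Lyz2 did not overlap, whereas Cd68 and Aif1 did. Of 17 reactive astrocyte genes 5 were lower without overlap (20.5% of all genes) and 0 higher, with a median of -0.25 that was -0.016 against WT library 2 alone. Gfap, the astrocyte intermediate filament, was at 51.1 and 66.3 FPKM in the α-Syn_AKG libraries and 157 and 75.7 FPKM in the WT libraries. Its difference was -0.89 ± 0.31 against both WT libraries and -0.37 against WT library 2 alone. S100a10, a marker of reactive astrocytes, was at 12.3 and 15.4 FPKM in the α-Syn_AKG libraries and 27.4 and 19.3 FPKM in the WT libraries.

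Complement and interferon genes were nearer to WT against WT library 2 alone. The complement median was -0.21 in 12 genes and 0.0095 against WT library 2 alone, and 1 gene was lower and 1 higher without overlap. C1qa, a subunit of the first complement component, was at 59.8 and 75.1 FPKM in the α-Syn_AKG libraries and 98.7 and 69.7 FPKM in the WT libraries, overlapping. The interferon response median was -0.27 in 20 genes, with 7 lower without overlap (20.5% of all genes) and 0 higher (21.3%). Against WT library 2 alone that median was -0.075. Ifit3, an interferon-induced antiviral gene, was at 7.76 and 8.17 FPKM in the α-Syn_AKG libraries and 14.002 and 8.26 FPKM in the WT libraries, so both α-Syn_AKG libraries were close below WT library 2. Of 14 astrocyte identity genes 4 were higher (21.3% of all genes) and 3 lower (20.5%), shares near those of all genes. Of 14 homeostatic microglia genes 1 was higher and 2 lower beside the same shares, and the 2 medians were -0.043 and -0.087.

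Stress and protein quality genes were mixed. Of 32 NRF2 and antioxidant genes 13 were lower without overlap (20.5% of all genes) and 0 higher (21.3%). Their median was -0.28, and -0.078 against WT library 2 alone. Mt2, a metal-binding metallothionein, was at 7.35 and 4.85 FPKM in the α-Syn_AKG libraries and 17.9 and 9.898 FPKM in the WT libraries, a difference of -1.04 ± 0.32 that was -0.64 against WT library 2 alone. Sod1 and Prdx1, which remove superoxide and peroxides, differed by -0.40 and -0.48, and by -0.23 and -0.26 against WT library 2 alone. Of 26 genes of the unfolded protein and integrated stress response 4 were higher (21.3% of all genes) and 11 lower (20.5%). Besides Xbp1, the chaperone Pdia6 was lower at 32.7 and 32.2 FPKM in the α-Syn_AKG libraries and 44.8 and 40.1 FPKM in the WT libraries, while Atf6, a sensor of unfolded proteins, was higher at 5.22 and 4.62 FPKM in the α-Syn_AKG libraries and 3.19 and 4.02 FPKM in the WT libraries. Of 22 heat shock chaperones 1 was higher (21.3% of all genes) and 5 lower, the latter a share near the 20.5% of all genes. Their median was -0.084, and -0.16 against WT library 2 alone. Both α-Syn_AKG libraries lay below WT library 2 for 16 of the 22 (32.4% of all genes) and above it for 2 (29.3%). Dnajb1, a co-chaperone of Hsp70, was at 19.8 and 20.1 FPKM in the α-Syn_AKG libraries and 23.9 and 24.1 FPKM in the WT libraries, with close replicates in both groups.

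Autophagy, mTOR and lysosome genes lay on both sides of WT. Of 39 autophagy genes 11 were higher (21.3% of all genes) and 11 lower (20.5%) without overlap, with a median of 0.012. Ulk1, the kinase that starts autophagy, was at 13.1 and 10.5 FPKM in the α-Syn_AKG libraries and 7.21 and 9.39 FPKM in the WT libraries. Map1lc3b, the autophagosome protein LC3B, was at 27.9 and 32.8 FPKM in the α-Syn_AKG libraries and 32.9 and 32.7 FPKM in the WT libraries, and Sqstm1, a receptor for autophagy cargo, was at 197 and 214 FPKM in the α-Syn_AKG libraries and 244 and 236 FPKM in the WT libraries. Ulk1 and Sqstm1 did not overlap between the groups and lay on opposite sides of WT, and Map1lc3b overlapped. Of 32 mTOR and AMPK genes 10 were higher (21.3% of all genes) and 7 lower, the latter a share near the 20.5% of all genes. Mtor itself was at 11.8 and 11.02 FPKM in the α-Syn_AKG libraries and 6.02 and 9.08 FPKM in the WT libraries, and Rheb, its activator, was at 17.6 and 17.9 FPKM in the α-Syn_AKG libraries and 20.97 and 19.7 FPKM in the WT libraries. Mtor was higher and Rheb lower in both α-Syn_AKG libraries. Of 45 lysosome genes 33 lay below WT in the mean. Without overlap 2 were higher (21.3% of all genes) and 11 lower, the latter a share near the 20.5% of all genes. The lysosome median was -0.11, and -0.038 against WT library 2 alone. Both α-Syn_AKG libraries lay below WT library 2 for 15 of the 45 (32.4% of all genes) and above it for 9 (29.3%). Of 20 synuclein and inherited Parkinson's disease genes 3 were higher and 4 lower, shares near the 21.3% and 20.5% of all genes, with a median of -0.017. Lrrk2, a kinase mutated in familial disease, was at 1.55 and 1.73 FPKM in the α-Syn_AKG libraries and 1.13 and 1.22 FPKM in the WT libraries. Chchd2, a mitochondrial protein, was at 136 and 187 FPKM in the α-Syn_AKG libraries and 264 and 203 FPKM in the WT libraries. Lrrk2 was higher and Chchd2 lower in both α-Syn_AKG libraries.

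Enzymes that make or use AKG had a median near WT. Of 32 genes of the TCA cycle and AKG metabolism 2 were higher without overlap (21.3% of all genes) and 8 lower (20.5%). Their median was -0.062, with a range of -0.43 to 0.33, and it was -0.090 against WT library 2 alone. Both α-Syn_AKG libraries lay below WT library 2 for 17 of the 32 (32.4% of all genes) and above it for 5 (29.3%). Ogdh, the AKG dehydrogenase, was at 55.4 and 55.6 FPKM in the α-Syn_AKG libraries and 40.6 and 53.7 FPKM in the WT libraries. Idh1, the cytosolic isocitrate dehydrogenase that forms AKG, was at 21.02 and 19.2 FPKM in the α-Syn_AKG libraries and 24.6 and 21.9 FPKM in the WT libraries. Their differences were 0.24 ± 0.14 and -0.20 ± 0.11, and that of Ogdh was smaller than the distance between the 2 WT libraries. Of 42 AKG-dependent dioxygenases 17 were higher (21.3% of all genes) and 7 lower (20.5%). Their median was 0.14, and it was 0.054 against WT library 2 alone and -0.024 with the length trend removed. The histone demethylase Kdm6b was at 3.51 and 3.13 FPKM in the α-Syn_AKG libraries and 1.62 and 2.11 FPKM in the WT libraries. The DNA demethylase Tet3 was at 2.303 and 1.69 FPKM in the α-Syn_AKG libraries and 0.772 and 1.17 FPKM in the WT libraries, and Kdm3b and Kdm7a differed by 0.41 and 0.53. All 4 were higher in both α-Syn_AKG libraries.

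Clock genes were mostly higher: of 22 genes 16 were higher without overlap (21.3% of all genes) and 0 lower (20.5%). Their median was 0.23, and 0.14 against WT library 2 alone. Against both WT libraries it was 0.21 in the α-Syn group and 0.18 in the AKG group. Per1, a repressor of the clock, was at 11.04 and 8.26 FPKM in the α-Syn_AKG libraries and 6.02 and 6.77 FPKM in the WT libraries. Hlf, an output factor, was at 29.5 and 28.1 FPKM in the α-Syn_AKG libraries and 10.6 and 21.95 FPKM in the WT libraries, with WT library 1 well below the rest. The sources used here do not give the time of day at dissection, and its part was not tested. Of 12 oligodendrocyte precursor genes 6 were higher without overlap (21.3% of all genes) and 0 lower. Cspg4, the proteoglycan NG2, was at 2.56 and 2.13 FPKM in the α-Syn_AKG libraries and 1.18 and 1.39 FPKM in the WT libraries. Of 18 myelin genes 1 was higher (21.3% of all genes), and the median of 0.10 was -0.20 against WT library 2 alone.

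The α-Syn_AKG libraries were also compared with the α-Syn libraries, to ask what differed between mice with and without AKG among those given the vector. Limma called 0 of 13716 genes (0%), as did voom, with 123 higher (0.897%) and 63 lower (0.459%) at an unadjusted p under 0.05. Libraries did not overlap for 1769 genes higher (12.9%) and 1570 lower (11.4%) in α-Syn_AKG. The genes with the smallest p that were higher in α-Syn_AKG included Adap2, at 3.14 and 2.88 FPKM in the α-Syn_AKG libraries and 1.64 and 1.91 FPKM in the α-Syn libraries. Slc38a5, an amino acid transporter of vessels, was at 4.55 and 3.82 FPKM in the α-Syn_AKG libraries and 3.07 and 2.34 FPKM in the α-Syn libraries. Gmnn, the replication inhibitor geminin, was at 2.63 and 2.98 FPKM in the α-Syn_AKG libraries, 1.89 and 1.61 FPKM in the α-Syn libraries and 3.14 and 3.01 FPKM in the WT libraries, so α-Syn_AKG was close to WT. Rpl21, Grrp1 and CAAA01147332.1 differed from α-Syn by 1.07 ± 0.29, 0.57 ± 0.16 and 0.68 ± 0.18.

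Among the genes lower in α-Syn_AKG than in α-Syn, Alb, albumin, was at 0.703 and 1.03 FPKM in the α-Syn_AKG libraries and 2.43 and 2.54 FPKM in the α-Syn libraries. In the WT libraries Alb was at 1.53 and 0.952 FPKM, overlapping α-Syn_AKG, and in the AKG libraries at 0.232 and 0.277 FPKM. The α-Syn libraries were thus the highest for Alb. C1ql4, a secreted C1q-related protein, was at 0.733 and 0.683 FPKM in the α-Syn_AKG libraries, 1.32 and 2.198 FPKM in the α-Syn libraries and 1.896 and 1.48 FPKM in the WT libraries, so the α-Syn_AKG libraries were below both groups. Slc19a3, a thiamine transporter, was at 1.19 and 1.04 FPKM in the α-Syn_AKG libraries and 2.12 and 1.61 FPKM in the α-Syn libraries, and Exo5, Avpr1a and Srp54b differed by -0.38 ± 0.13, -0.49 ± 0.17 and -0.54 ± 0.18. Values below 1 FPKM, such as those of C1ql4 in the α-Syn_AKG libraries, rest on few reads.

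**Figure D5:**
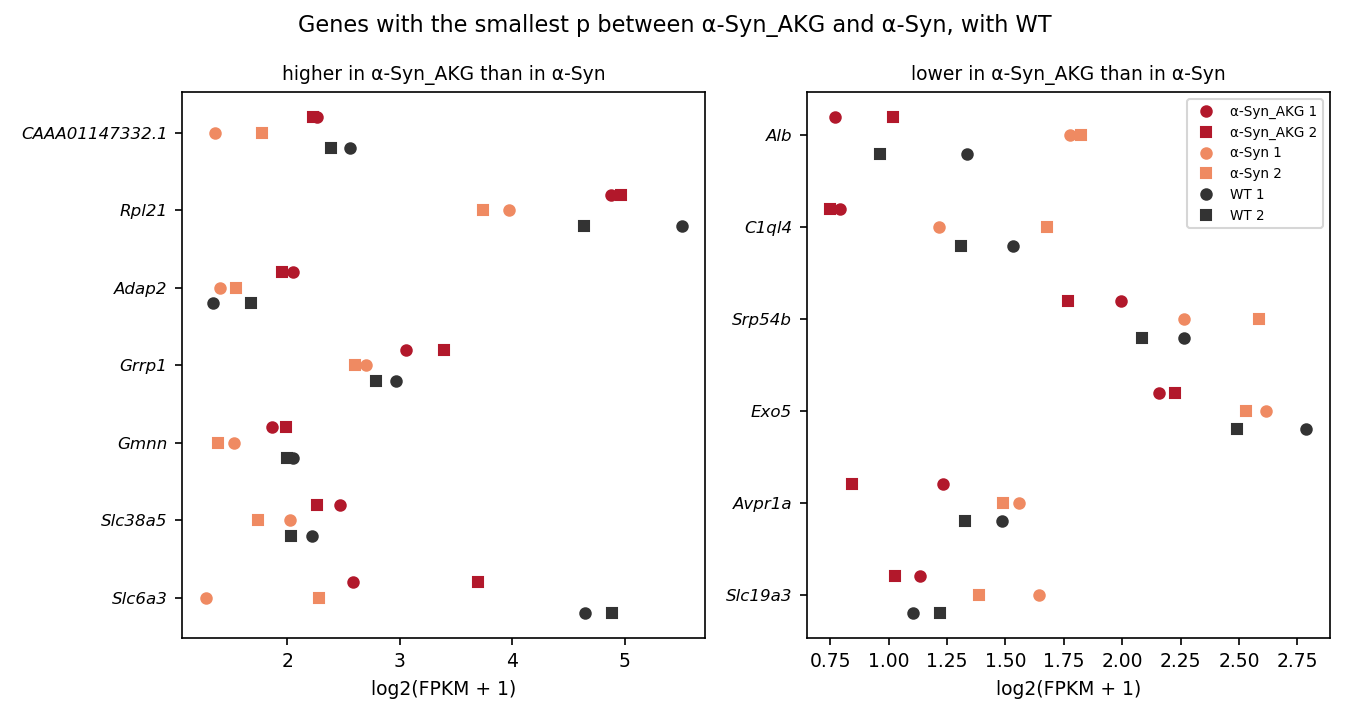
Log2(FPKM + 1) of the genes with the smallest p between the α-Syn_AKG and α-Syn libraries, 6 per direction and Slc6a3, with the WT libraries beneath. Slc6a3 (4.99 and 11.9 FPKM in α-Syn_AKG, 1.43 and 3.87 in α-Syn, 24.1 and 28.5 in WT) lies between α-Syn and WT, while C1ql4 and Exo5 are lower in α-Syn_AKG than in both.

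The lists described next were chosen after their values were seen, and other lists had as many or more members that did not overlap α-Syn, such as lysosome genes with 9 higher and 3 lower of 45. Of 21 cholesterol synthesis genes 10 were lower in α-Syn_AKG than in α-Syn without overlap (11.4% of all genes) and 0 were higher (12.9%), with a median of -0.12. Against WT 8 of the 21 were lower (20.5% of all genes) and 0 higher (21.3%), with a median of -0.11. Below WT library 2 alone lay 16 (32.4% of all genes), with a median of -0.24. Msmo1, a sterol demethylase, was at 14.8 and 12.7 FPKM in the α-Syn_AKG libraries, 16.6 and 17.3 FPKM in the α-Syn libraries and 17.4 and 18.8 FPKM in the WT libraries. Fdft1, squalene synthase, was at 25.98 and 26.6 FPKM in the α-Syn_AKG libraries, 29.9 and 29.8 FPKM in the α-Syn libraries and 30.9 and 33.8 FPKM in the WT libraries. Sqle, squalene epoxidase, was at 14.2 and 12.9 FPKM in the α-Syn_AKG libraries, 14.97 and 15.7 FPKM in the α-Syn libraries and 15.4 and 17.02 FPKM in the WT libraries. The α-Syn_AKG libraries were the lowest pair of these 3 groups for each of the 3 genes, by differences of under 0.5 on the log2 scale. In the AKG libraries Msmo1 was at 14.3 and 15.6, Fdft1 at 26.1 and 27.7 and Sqle at 15.8 and 15.8 FPKM.

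Of 16 brain endothelium genes 8 were higher in α-Syn_AKG than in α-Syn (12.9% of all genes) and 0 lower (11.4%), with a median of 0.12. Against WT 8 were higher (21.3% of all genes) and 1 lower (20.5%), with a median of 0.21 that was 0.083 against WT library 2 alone. Vwf, von Willebrand factor, was at 3.53 and 3.07 FPKM in the α-Syn_AKG libraries, 2.195 and 1.88 FPKM in the α-Syn libraries and 2.85 and 1.64 FPKM in the WT libraries. Slco1a4, an organic anion transporter of the blood-brain barrier, was at 12.3 and 10.5 FPKM in the α-Syn_AKG libraries, 9.43 and 9.73 FPKM in the α-Syn libraries and 7.83 and 8.07 FPKM in the WT libraries. In both genes each α-Syn_AKG library was above every α-Syn and WT library. Of 12 ependymal cilia genes 8 were lower than in α-Syn (11.4% of all genes) and 0 higher, with a median of -0.27. Of 20 interferon response genes 7 were higher (12.9% of all genes) and 1 lower (11.4%) than in α-Syn, with a median of 0.13. Ifit3 was at 5.34 and 6.51 FPKM in the α-Syn libraries. Of 12 complement genes 5 were higher (12.9% of all genes) and 0 lower (11.4%) than in α-Syn. C1qb was at 56.4 and 76.99 FPKM in the α-Syn_AKG libraries and 56.8 and 40.8 FPKM in the α-Syn libraries, which overlapped. The synaptic, channel, ribosomal, respiratory and dopamine lists had medians between 0.0045 and 0.14 in this comparison.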

How the data were processed

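RNA-seq libraries were made with a SMARTer kit from total RNA of the substantia nigra, per the labels' protocols. The authors deposited 1 table of FPKM values for 54532 genes with gene lengths and coordinates, per the file headers. The submitters' processing notes name GRCm38 and mm10, and the sources used here do not name the aligner, the counting tool or the strand setting, so overlapping and antisense genes are uncertain. Times gene length, 100% of the deposited FPKM values were whole reads (within 0.01), which gave the depth. Of the genes shared with GENCODE M21, 98.3% had identical coordinates.

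The 13716 genes averaging 1 FPKM or more over 8 libraries, 12326 of them protein-coding, were fitted as log2(FPKM + 1) by limma 3.58.1 in R 4.3.3, with 1 mean per group, eBayes with trend, two-sided tests, Benjamini-Hochberg adjustment over all of them and a threshold of 0.05. Residual degrees of freedom were 4, and the median prior added 2.98. The 4 groups share 1 estimate of the spread, although the chi-square per degree of freedom between the recovered reads of a pair was 28.7 in α-Syn_AKG, 10.5 in α-Syn, 10.9 in AKG and 64.9 in WT. No pair therefore looked like 1 library deposited again. Without WT library 1, WT library 2 is assumed to vary like the other groups. The code was tested on simulated data.

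The members, the 45 gene lists (1054 entries) and the tests were chosen with earlier results of these data known. Lists are described by counts and medians, with no test. A gene does not overlap between groups where all libraries of one lie above all libraries of the other. Over all tested genes, 21.3% were higher and 20.5% lower in this way against WT. Against α-Syn the shares were 12.9% and 11.4%. Named protein-coding genes (passing over Gm and Rik symbols) are the 8 per direction with the smallest p and the 10 per direction with the widest gap against WT, the 6 per direction with the smallest p against α-Syn, up to 4 per list with the smallest p, and a fixed set that includes Th, Slc6a3, Gfap and Ogdh, a few of which are not reported here. Some list members, such as Qdpr, Nr4a2, Aldh1a1 and Sqle, were named for their role after their values were seen. Promoter windows are from RefSeq (GRCm38.p6), matched for 4 of 4 genes searched. Python 3.11.15 with pandas 2.3.3, numpy 2.4.6 and, for figures, matplotlib 3.10.9 was used. Alternatives were other filters, pseudocounts, scalings, spread estimates and library weights, a length correction, a replicate block, voom, and each library left out.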

Additional observations from a re-analysis of the deposited data

How the results depend on the processing

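Single genes were compared under the alternatives between α-Syn_AKG and WT or, where chosen against α-Syn, between α-Syn_AKG and α-Syn. Of 1120 values of these 60 results, 1084 kept their direction and side of the threshold, 31 passed it and 5 reversed. Between α-Syn_AKG and WT, 789 of 855 values of 45 list medians moved by less than the spread between replicates. Of these, 16 changed sign. The count of 0 called genes became 4 with no filter on low values and 1 with a pseudocount of 0.1, and leaving out 1 library gave 0 to 2916, the highest without WT library 2. With no filter it was 6 against α-Syn and 243 against WT library 2 alone, and in all 3 comparisons it stayed 0 with a minimum of 5 FPKM, both other scalings, the length correction and no trend. Genes with a gap of 0.5 above WT, 64 as reported, numbered 31 with that minimum, 101 with no filter, 138 with the lower pseudocount and 119 to 1533 without 1 library. Genes with such a gap below WT, 50 as reported, numbered 23, 78 and 93 under the same 3 settings, 27 with the length correction and 82 to 1116 without 1 library. The lone library left in a group is assumed to vary like the others, and the cause of these shifts was not tested. Leaving out 1 library changed the sign of 15 medians. Those that moved by more than the spread between replicates ranged over -0.0413 to 0.393 for nigral GABA neurons, -0.0148 to 0.380 for striatal neurons, -0.0703 to 0.0337 for astrocytes, -0.263 to 0.0504 for homeostatic microglia, -0.124 to 0.00958 for the TCA cycle, -0.0805 to 0.0374 for fatty acid genes, -0.235 to 0.0371 for cholesterol synthesis, -0.0486 to 0.0113 for mTOR signalling, -0.0469 to 0.0701 for Parkinson's disease genes. Those within that spread ranged over -1.92 to 0.660 for choroid plexus, -0.602 to 3.64 for hemoglobin, -0.204 to 0.467 for myelin, -0.482 to 0.00951 for complement, -0.150 to 0.213 for glucocorticoid response, -0.00939 to 0.0611 for autophagy. Single genes that reversed ranged over -0.309 to 0.0665 for Cd68, -0.602 to 4.43 for Hbb-bs and -5.17 to 1.31 for Ttr. Quantile normalization reversed the medians of astrocytes (0.0679), the mitochondrial genome (0.00879), the TCA cycle (0.0300), fatty acid (0.0573) and Parkinson's disease genes (0.0595). The length correction reversed the mitochondrial genome (0.0809), dioxygenases (-0.0238), autophagy (-0.0390), mTOR signalling (0.00187) and Cd68 (0.104). Mural cells reversed with no filter (-0.0373) and, like autophagy (-0.0257), with the minimum of 5 FPKM (-0.00853). With the replicate number as a block limma called 0 genes, with 906 higher and 539 lower at an unadjusted p under 0.05. The block also left 0 against α-Syn, and it rests on numbers alone, since deviations of same-numbered α-Syn_AKG and WT libraries correlated at -0.32. With crossed numbers as the block, limma called 0, with 1403 higher and 868 lower unadjusted. Crossed numbers, voom (0 called, 1384 higher and 654 lower unadjusted) and protein-coding genes alone (0 called) were chosen after seeing the data. The quasi-likelihood count test listed as an alternative was not run, because the deposited unit is FPKM. With 2 libraries per group, 1 library could decide a count, and genes near 1 FPKM rest on few reads.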

Other observations

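Hypothalamic peptide genes differed widely between the WT libraries. Of 12 such genes 0 were higher (21.3% of all genes) and 0 lower (20.5%) without overlap. Their median was -0.50, and -0.24 against WT library 2 alone. Hcrt, the orexin precursor, was at 116 and 163 FPKM in the α-Syn_AKG libraries and 2.14 and 197 FPKM in the WT libraries. Oxt, oxytocin, was at 359 and 95.4 FPKM in the α-Syn_AKG libraries and 1046 and 255 FPKM in the WT libraries, and Agrp, a feeding peptide, at 9.75 and 5.74 FPKM in the α-Syn_AKG libraries and 66.6 and 6.605 FPKM in the WT libraries. WT library 1 was the lowest of the 8 libraries for Hcrt and the highest for Oxt and Agrp. Of 6 cholinergic and motor neuron genes 0 were higher (21.3% of all genes) and 2 lower (20.5%) without overlap. The median was -0.31, and -0.21 against WT library 2 alone. Igkc, an immunoglobulin light chain, was at 11.6 and 31.2 FPKM in the α-Syn_AKG libraries and 129 and 21.2 FPKM in the WT libraries, and of 17 listed T cell and antibody genes 3 were tested.

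Of 13 genes of mural cells and fibroblasts 5 were higher (21.3% of all genes) and 1 lower (20.5%) without overlap. Their median was 0.15, and 0.14 against WT library 2 alone. Pdgfrb, a growth factor receptor of pericytes, was at 5.74 and 4.68 FPKM in the α-Syn_AKG libraries and 3.14 and 3.72 FPKM in the WT libraries, and Notch3 differed by 0.51 ± 0.20. Of 20 immediate early genes 6 were higher (21.3% of all genes) and 0 lower (20.5%) without overlap. The median was 0.15, and 0.026 against WT library 2 alone. Egr1, a transcription factor induced by activity, was at 4.63 and 4.76 FPKM in the α-Syn_AKG libraries and 1.65 and 3.97 FPKM in the WT libraries, with WT library 1 the lowest of the 8. Of 19 glucocorticoid response genes 3 were higher (21.3% of all genes) and 1 lower (20.5%) without overlap. The median was 0.0049, and 0.21 against WT library 2 alone. Both α-Syn_AKG libraries lay above WT library 2 for 13 of the 19 (29.3% of all genes) and below it for 2 (32.4%). Sgk1, a kinase of this response, was at 28.1 and 14.2 FPKM in the α-Syn_AKG libraries and 29.1 and 11.1 FPKM in the WT libraries, which overlapped. Of 23 fatty acid genes 4 were higher (21.3% of all genes) and 6 lower (20.5%) without overlap. The median was -0.017, and -0.080 against WT library 2 alone. Both α-Syn_AKG libraries lay below WT library 2 for 13 of the 23 (32.4% of all genes) and above it for 4 (29.3%). Fads2, the rate-limiting desaturase of this pathway, was at 113 and 126 FPKM in the α-Syn_AKG libraries and 135 and 145 FPKM in the WT libraries, and the groups did not overlap. Fasn, fatty acid synthase, was at 33.98 and 28.3 FPKM in the α-Syn_AKG libraries and 14.3 and 26.5 FPKM in the WT libraries, and was higher in both α-Syn_AKG libraries. Of 13 genes of the mitochondrial genome 1 was higher (21.3% of all genes) and 6 lower (20.5%) without overlap. The median was -0.16, and -0.052 against WT library 2 alone. Cytochrome b, mt-Cytb, was at 6890.1 and 6886 FPKM in the α-Syn_AKG libraries and 9218 and 7371 FPKM in the WT libraries. Ndufb9, a nuclear complex I gene, was at 52.5 and 76.5 FPKM in the α-Syn_AKG libraries and 81.5 and 74.7 FPKM in the WT libraries, which overlapped. Hbb-bs, an adult β-globin, was at 110.4 and 176 FPKM in the α-Syn_AKG libraries and 5.53 and 212 FPKM in the WT libraries, with WT library 1 the lowest of the 8.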
